A study of Homo sapiens with 12 samples.

Results

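The carnitine shuttle genes are the 8 genes CPT1A, CPT1B, CPT1C, CPT2, SLC25A20, CRAT, CROT and SLC22A5, out of 19970 protein-coding genes in the annotation used. PPARγ binding was described at each of them from ChIP-seq peak lists of a wild-type and a mutant receptor. A peak was assigned to a gene when its summit, the position of highest signal, lay within 50 kb of the gene's span on the hg38 build. A peak of a pooled list was called reproducible when at least 1 bp of it was overlapped in both single-library lists of its group. By these criteria the 8 genes had 31 of the 25164 pooled wild-type peaks and 5 of the 2846 pooled KQ peaks. None of the 8 windows overlapped another (0 pairs).

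Long-chain fatty acids reach the mitochondrial matrix as esters of carnitine. Carnitine enters the cell through SLC22A5, also called OCTN2, and a CPT1 enzyme at the outer mitochondrial membrane joins it to the fatty acid, which is the controlled step of fatty acid oxidation. The carrier SLC25A20 then exchanges acylcarnitine for free carnitine across the inner membrane, and CPT2 restores the acyl-CoA inside. CRAT and CROT transfer short and medium acyl groups to carnitine in mitochondria and peroxisomes. PPAR receptors bind DNA as partners of RXR, and genes of this shuttle are known PPAR targets in liver and muscle.

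The cells were MCF10A-NeuT, a breast epithelial cell line of human origin that carries the NeuT oncogene. The 4 ChIP libraries used here came from cells infected with a retrovirus carrying wild-type PPARγ (PPARg-WT, 2 libraries) or the K154/155Q mutant (PPARg-KQ, 2 libraries), in which neighbouring lysines were replaced by glutamine and which the design text describes as deficient in acetylation. The vector also carries GFP. Libraries of vector cells and input DNA were not analysed here. The labels give the ChIP antibody as one to PPARγ while the series' design text names Flag, so receptor from the cells' own PPARG gene may also have been pulled down. They do not say whether the lines were clones or whether replicates were separate cultures, and a p-value over libraries then measures only the spread between these libraries.

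The 6 lists held between 1035 and 25164 peaks. For each peak the lists give the authors' fold enrichment at the summit over the caller's local background, which describes and ranks peaks within one list. Fold and p together gave back the number of tags stacked at each summit, and all peaks of every list (100%) matched a whole number of tags to within 0.01 of −log10 p. The lowest background of a list, which in MACS2 scales with read number and fragment length, was 0.381 and 0.145 tags for wild type and 0.613 and 0.588 tags for KQ (library 1, then 2). Summit tags divided by this lowest background are called the height below. Wild-type library 2 gave greater heights than wild-type library 1 at 13 of the 14 reproducible wild-type sites of the shuttle genes, and at 87.5% of the wild-type sites called in all 4 libraries.

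Wild-type PPARγ had a reproducible site near 7 of the 8 shuttle genes, all but CROT, against 37.7% of all protein-coding genes. With KQ, 2 of 8 had one, CPT1A and CPT1B, against 2.68% of all genes. When every pooled peak was counted, 8 of 8 genes had a wild-type peak (67.1% of all genes) and 4 of 8 a KQ peak (16.4% of all genes), the further KQ genes being SLC25A20 and SLC22A5. Longer genes have wider windows, and the median length of the members, 24.5 kb, was close to the 24.2 kb of all protein-coding genes. The members ranged from 9.75 to 89.7 kb, and the part of gene length in these counts was not tested. The 14 reproducible wild-type peaks had a median fold of 8.58, against 9.03 for all 8033 reproducible wild-type peaks. Only 3 of the 14 had their summit inside the member gene itself, and 10 of the 14 also lay within 50 kb of another protein-coding gene.

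**Figure D1:**
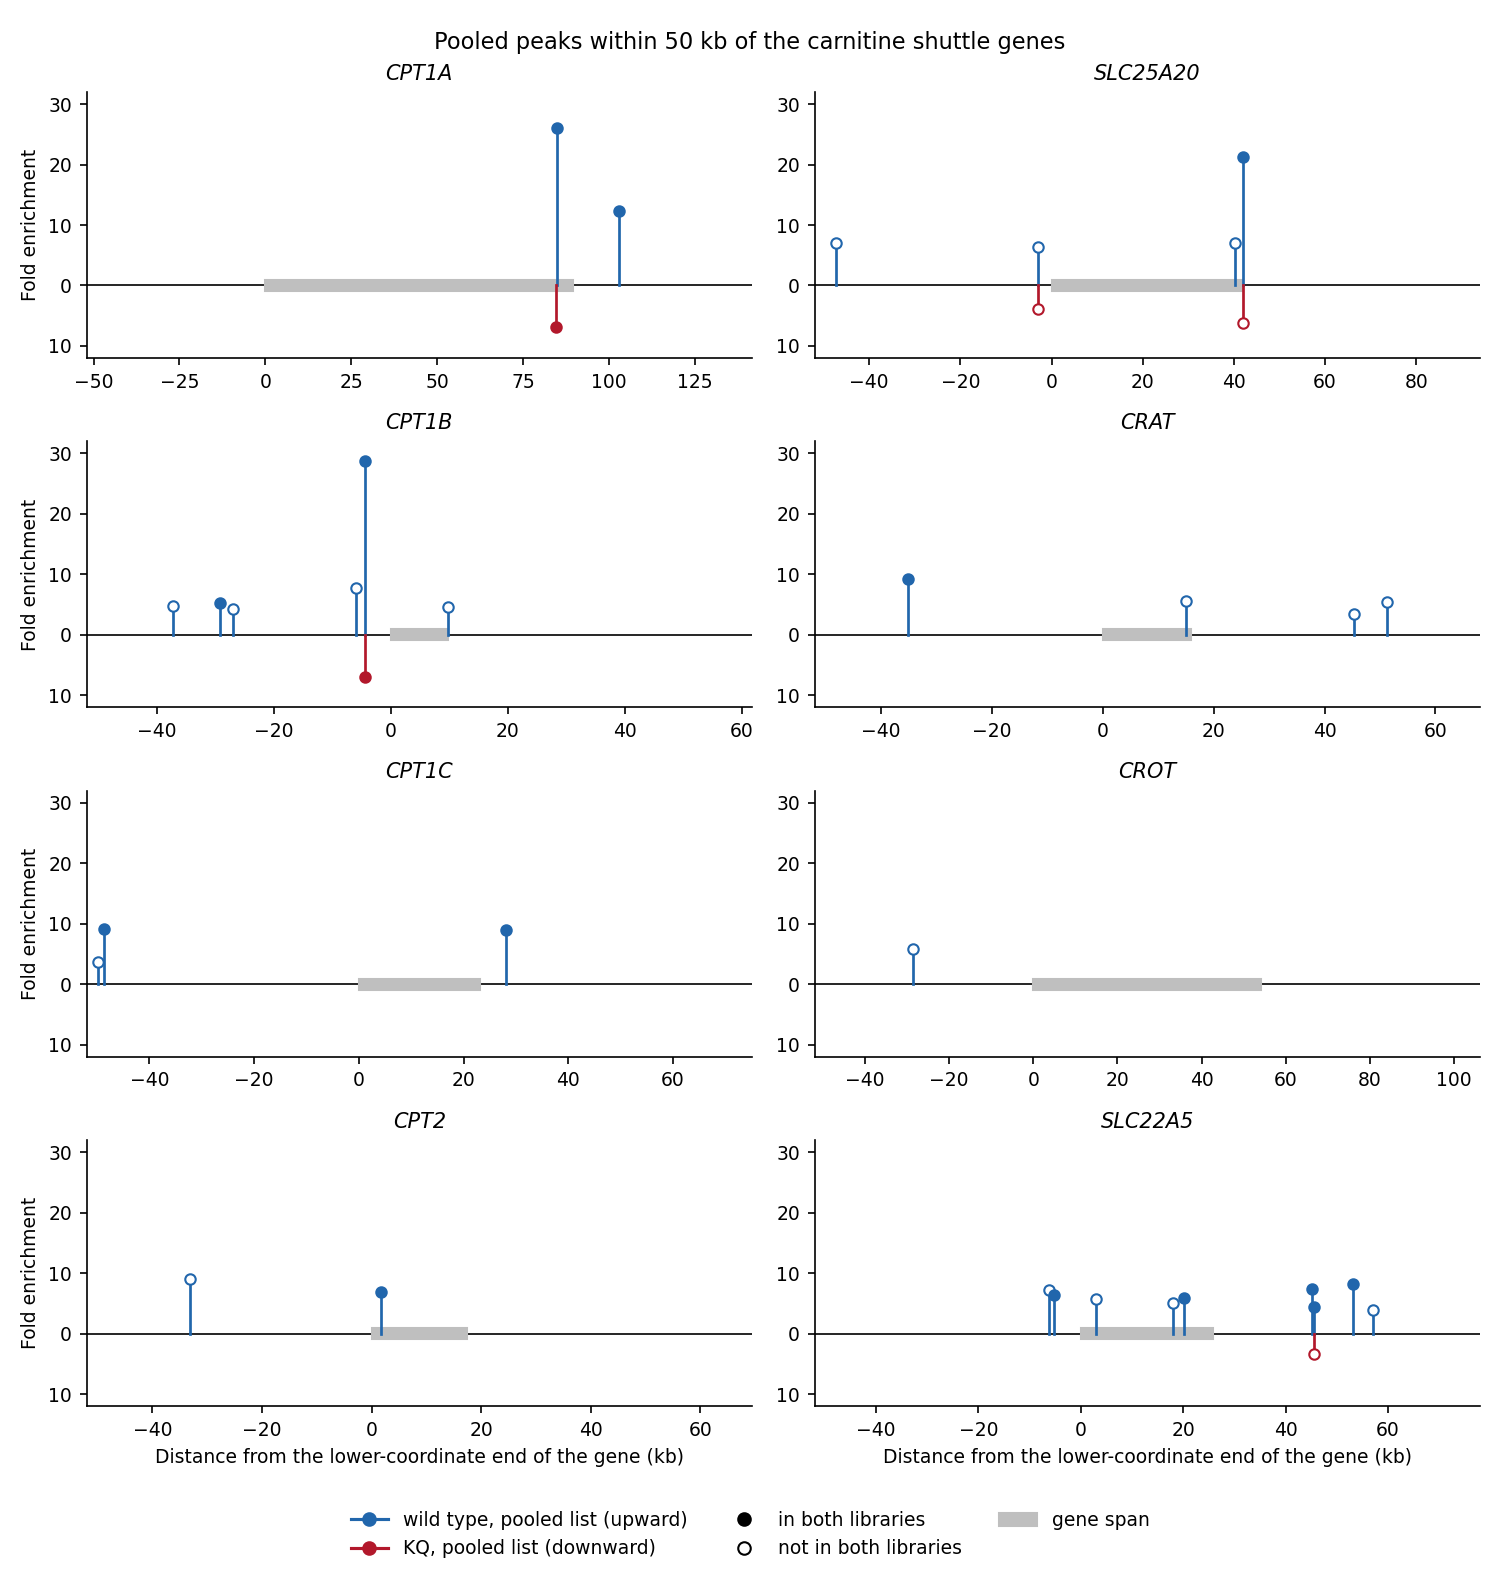
Pooled peaks around each shuttle gene, with distance in kb from the gene's lower-coordinate end on the x axis and the authors' fold enrichment on the y axis, wild type upward and KQ downward. Filled circles mark peaks found in both libraries of their group; 3 wild-type peaks exceed a fold of 20, at CPT1A, CPT1B and SLC25A20, and each has a KQ peak beneath it.

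SLC22A5, the plasma membrane carnitine transporter, had the most sites but low ones. Its window (gene at chromosome 5, 132369710 to 132395612) held 9 pooled wild-type peaks, of which 5 were reproducible, with folds of 6.35, 5.96, 7.35, 4.33 and 8.26 in order of position. The first lay 5.19 kb before the gene's start and the second 20.1 kb inside the gene. The other 3 lay 19.2, 19.6 and 27.3 kb beyond its end, within the noncoding gene CARINH. Both of the former also fell within 50 kb of SLC22A4, a neighbouring transporter of the same family.

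The highest of the SLC22A5 sites (chromosome 5, 132422776 to 132423034) had a fold of 5.59 in wild-type library 1 and 10.4 in library 2, a mean of 8.0 ± 3.4 (SD, n = 2). All 5 sites stood higher in library 2, by fold and by height. A single pooled KQ peak (132415145 to 132415320, fold 3.39) overlapped the fourth site. It was found in KQ library 2 with a fold of 5.79 and 18 tags, and not in KQ library 1, so it was not reproducible.

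CPT1A, the CPT1 form found in liver and many other tissues, carried one of the strongest wild-type sites of the genome. The peak spanned chromosome 11, 68839232 to 68839670, inside the gene (68754620 to 68844277, minus strand) and 4.85 kb from its start, and no other protein-coding gene lay within 50 kb of its summit. The annotation used here gives no exons, so intron and exon were not told apart. Its pooled fold of 26.1 ranked 25 among 25164 wild-type peaks, and it ranked 6 and 74 in the lists of libraries 1 and 2. Wild-type library 1 had a fold of 29.1 on 62 tags and library 2 a fold of 17.9 on 33 tags. The KQ libraries had folds of 6.89 on 23 tags and 6.87 on 27 tags. All 4 libraries thus had a peak at the site, with both wild-type values above both KQ values.

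The pooled KQ peak at CPT1A (68839269 to 68839495, fold 6.83) ranked 333 among 2846. Over the lists that held this site or the main CPT1B site, the summits lay no more than 48 bp from the pooled wild-type summit. CPT1A had a further reproducible wild-type site 13.4 kb upstream of the gene start (68857511 to 68857826, pooled fold 12.4), with folds of 10.1 and 6.36 in the libraries. No KQ list had a peak there. MRPL21 and IGHMBP2 were also within 50 kb of this upstream site.

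CPT1B, the form typical of muscle and heart, had a pooled fold of 28.7, the highest of the family in the pooled list, where it ranked 12. In the single libraries the fold was more than 1.5 times lower, ranked 174 and 90, and lay below that of CPT1A in both. The peak (chromosome 22, 50564396 to 50564737) lay 4.33 kb outside the gene span (50568861 to 50578612) and within the uncharacterised locus LOC107985568. Its nearest protein-coding gene was SYCE3, 1.61 kb away, and 8 protein-coding genes besides CPT1B had it in their windows. The wild-type folds were 18.2 in library 1 (49 tags) and 17.5 in library 2 (27 tags). The KQ folds were 7.39 in library 1 (22 tags) and 4.64 in library 2 (25 tags). Again all 4 libraries had a peak and the groups did not overlap. The reproducible KQ peak (50564383 to 50564608) had a pooled fold of 6.93 and ranked 302 among 2846.

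The other CPT1B peaks had pooled folds of 4.35 to 7.7. A reproducible wild-type site 29.1 kb away (50539636 to 50539934) had a pooled fold of 5.32 and library folds of 5.7 and 5.73, and its nearest protein-coding gene was KLHDC7B. The remaining 4 wild-type peaks in the window were not reproducible. They included the peak of fold 7.7, 5.92 kb from the span and in library 2 only, and one 84 bp outside the CPT1B span with a fold of 4.65.

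CPT1C, a form found mainly in neurons, had 2 reproducible wild-type sites and 0 peaks in any KQ list. One (chromosome 19, 49641768 to 49642128, fold 9.07) lay inside SCAF1, 48.7 kb from CPT1C and near the limit of the window. Library folds there were 8.29 and 8.33. The other (49718541 to 49718776, fold 8.9) lay 4.96 kb beyond the end of CPT1C, which was its nearest protein-coding gene, with library folds of 10.4 and 6.86.

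SLC25A20, the carnitine-acylcarnitine carrier of the inner membrane, was the one member with a strong wild-type site at its start. The peak spanned chromosome 3, 48898728 to 48899020, with its summit 15 bp upstream of the annotated start at 48898882 (minus strand), and ranked 108 among wild-type peaks by fold (21.2). Wild-type library 1 had a fold of 22.8 on 52 tags and library 2 a fold of 14.9 on 34 tags. A KQ peak lay on it (48898779 to 48899151, pooled fold 6.16, 39 tags). In KQ library 1 it had a fold of 7.34 on 20 tags, and KQ library 2 had no peak, so the KQ site was not reproducible.

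The promoter of SLC25A20 is shown because it is the only one among the 6 members with an entry in the RefSeq promoter table (GRCh38.p14) that any list's peak overlapped. CPT1B and CRAT did not match. The stretch covers chr3:48898874-48899020 on the gene's strand, from the upstream edge of the wild-type peak to the ninth base of the gene, 147 bases in all. Capitals mark the best match to a DR1 element, the arrangement that PPAR and RXR bind together, searched on both strands as the hexamer AGGTCA repeated in the same direction after 1 base. The match has 3 mismatches at the 12 fixed letters and begins 4 bases before the start. It lay 11 bp from the pooled wild-type summit and 32 bp from the pooled KQ summit.
SLC25A20: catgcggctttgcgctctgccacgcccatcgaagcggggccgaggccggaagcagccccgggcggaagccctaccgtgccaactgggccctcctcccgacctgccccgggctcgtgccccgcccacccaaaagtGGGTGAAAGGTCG

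For comparison, the best DR1 match in the 300-base promoter of each matched member is given below, read in the direction of the element. Capitals mark letters equal to it, and the free middle base is in lower case. Where several matches tied, the one farthest downstream is shown, and for CPT1C, which has 3 entries, the best of them.
SLC25A20: gGGTgAaAGGTCg
CPT1C: AGGTCgcAGccCA
CPT1A: tGGcCccAGGgaA
CPT2: AGcgCccAaGaCA
CROT: AGGcCcaAGGggg
SLC22A5: AGGgCgcgGGgCg

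SLC25A20 and CPT1C had 3 mismatches, and the other 4 genes had 5. Among all 22131 promoters of this length, 19.0% held a match with 3 mismatches or fewer and 99.7% one with 5 or fewer. With at most 2 mismatches the share was 2.57%, and none of the 6 members was among them (0 of 6). The intact hexamer was in 11.9% of promoters and in 0 of these 6. No sequence was read at the CPT1A and CPT1B peaks, which lie outside promoter windows.

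Of the further wild-type peaks at SLC25A20, 1 lay 1.62 kb inside the gene (fold 6.99, library 2 only). Another, 3.02 kb beyond its far end (fold 6.41, library 1 only), was overlapped by a KQ peak of fold 3.84 that was in neither KQ library. The third lay inside PRKAR2A, 47.4 kb away (fold 6.98), and was in neither library. Thus none of the 3 was reproducible.

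CPT2, which completes the transfer in the matrix, had 1 reproducible wild-type site and 0 KQ peaks in any list. It lay at chromosome 1, 53198466 to 53198653, 1.71 kb inside the gene from its start, with a pooled fold of 6.9. The libraries gave folds of 6.18 and 5.27, on 16 and 9 tags. A pooled peak of higher fold, 9.07, lay 33.2 kb upstream and was found in library 1 only.

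The acyltransferases of shorter chains differed in reproducible sites, with 1 at CRAT and 0 at CROT. CRAT, carnitine acetyltransferase, had its site at chromosome 9 (129059498 to 129059738, pooled fold 9.19), with library folds of 6.89 and 7.18. It lay 35.2 kb away from CRAT and inside MIGA2, a mitochondrial fusion gene. A peak inside CRAT itself (129109620 to 129109822, fold 5.57) was in library 1 only. Library 2 had another peak inside CRAT (129103757 to 129103916, fold 6.54 on 7 tags), which was not in the pooled list. CROT, the peroxisomal octanoyltransferase, had a single pooled wild-type peak, 28.7 kb upstream (fold 5.85), found in library 2 only with 5 tags. Neither gene had a peak in any KQ list.

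**Figure D2:**
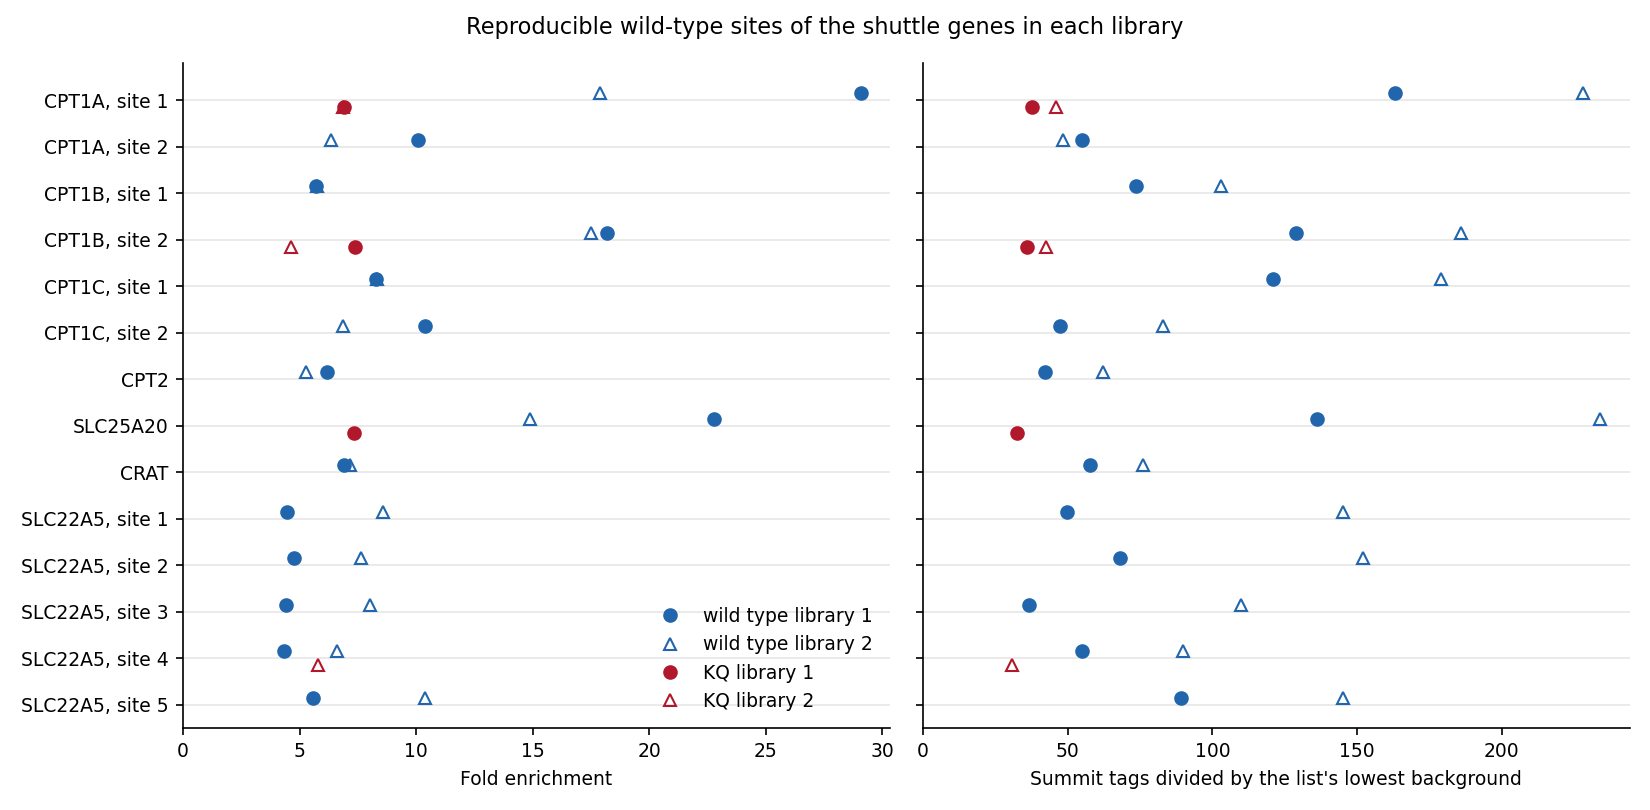
The 14 reproducible wild-type sites of the shuttle genes, with the authors' fold enrichment (left) and the summit tags divided by the list's lowest background (right) on the x axes, for wild-type (blue) and KQ (red) library 1 (circles) and library 2 (triangles). A library without a peak at a site has no point; only the strong CPT1A and CPT1B sites have a point in all 4 libraries, and there both red points lie below both blue ones.

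At the shuttle sites called in all 4 libraries, those of CPT1A and CPT1B, both KQ libraries were below both wild-type libraries by height and by fold. The height at CPT1A was 163 and 228 with wild type and 37.5 and 45.9 with KQ, with means of 195 ± 45.9 and 41.7 ± 5.94 (SD, n = 2 each), a ratio of 4.68. At CPT1B it was 129 and 186 against 35.9 and 42.5, with means of 157 ± 40.7 and 39.2 ± 4.69 (SD, n = 2 each), a ratio of 4.02. The differences exceeded the spread within either group, although a two-sided exact permutation test of 2 libraries against 2 cannot go below p = 0.33, which it gave at both sites. The lowest background, by which heights are divided, was lower in both wild-type lists than in the KQ lists. In wild-type library 2 a peak of 5 tags, at CROT, already had a height of 34.5. The part of depth and of the calling threshold in these ratios, and in the genome-wide ones below, was not tested.

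Genome-wide, 313 reproducible wild-type sites were called in all 4 libraries, and in 99.4% of them both wild-type heights were above both KQ heights. By the authors' fold, both wild-type values were above both KQ values at 65.8% of these sites. The median ratio of wild-type to KQ height over the 313 sites was 3.11, with quartiles of 2.43 and 3.8. The CPT1A ratio was exceeded at 39 of the 313 sites and that of CPT1B at 68. At SLC25A20 the height was 136 and 234 with wild type and 32.6 in the 1 KQ library that had a peak.

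**Figure D3:**
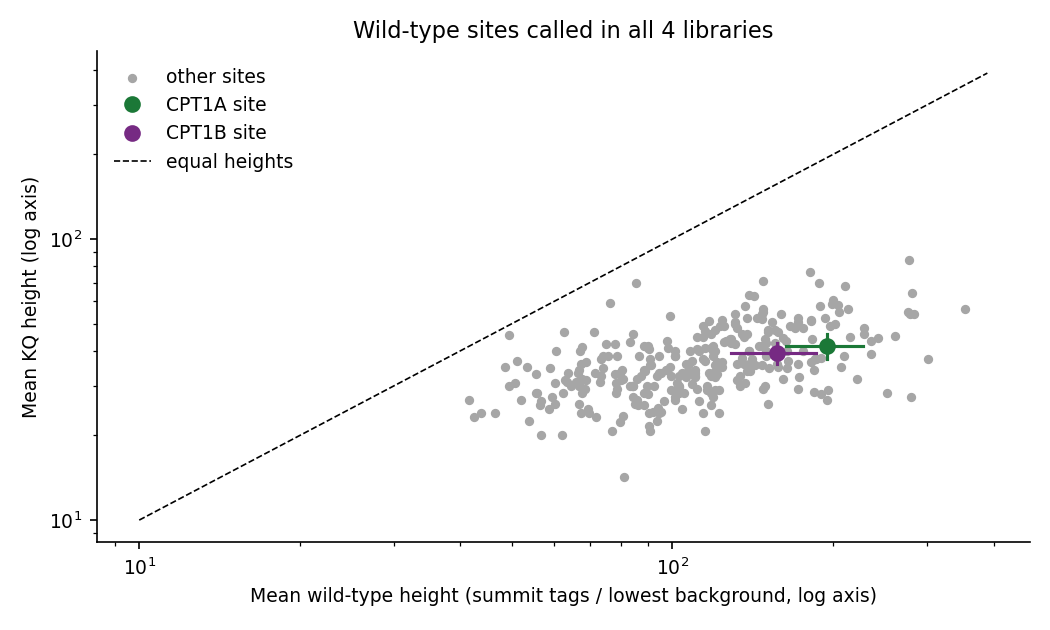
Mean height in the wild-type libraries (x) and in the KQ libraries (y), both on log axes, at the 313 reproducible wild-type sites called in all 4 libraries; bars on the coloured points join the values of the 2 libraries of a group. The CPT1A and CPT1B sites lie below the line of equal heights within the cloud of other sites.

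Among the shuttle sites, those that overlapped any pooled KQ peak were the strongest ones and 1 weak one. Only the CPT1A and CPT1B sites overlapped a reproducible KQ peak. The KQ peaks at the SLC25A20 and SLC22A5 sites were not reproducible. Of the 14 reproducible wild-type sites, 4 (28.6%, exact 95% binomial interval 8.39 to 58.1, counting error only) overlapped a pooled KQ peak, against 20.1% of all reproducible wild-type peaks. The interval takes the sites as independent, although 5 of them lie in the SLC22A5 window. It does not measure the spread between libraries. At a fold of 20 or more, all 3 shuttle sites did so, as did 64.1% of the 156 reproducible sites of that strength. Between 10 and 20 it was 0 of 1, against 28.2%, and between 5 and 10 it was 0 of 9, against 13.9% of 4671. Below 5 the SLC22A5 site was the only member (1 of 1, against 13.7%). Conversely, all 5 pooled KQ peaks in the windows overlapped a pooled wild-type peak. The same share over all 2846 pooled KQ peaks was not computed, and the wild-type list is longer, with 25164 peaks. Without that share, the count cannot be compared with other genes, and nothing is read from it about the shuttle genes.

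The 8 windows together held 19 and 23 peaks in the lists of single wild-type libraries, and 3 and 3 in those of KQ. The means were 21.0 ± 2.83 and 3.0 ± 0.0 (SD, n = 2 each), a difference of 18.0 that the exact permutation test, two-sided, placed at its floor of p = 0.33. As a share of each list the order was the opposite, with 1.05 and 1.29 window peaks per 1000 listed peaks for wild type and 2.38 and 2.9 for KQ (difference -1.47, exact permutation p = 0.33, n = 2 each). When every library list was shortened to its 1035 strongest peaks by q, each of the 4 libraries had 3 peaks in the windows, and both differences were 0.0 (exact permutation p = 1.0). The list of reproducible wild-type peaks, shortened in the same way to the 354 of KQ, had a peak near 3 members (CPT1A, CPT1B and SLC25A20), against 3.25% of all genes.

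Wild-type sites were also common near the genes that work before and after the shuttle. Genes of carnitine synthesis, other carnitine carriers and malonyl-CoA control, the brake on CPT1, had a reproducible wild-type site in 8 of 12 cases and a KQ site in 0 of 12, beside background shares of 37.7% and 2.68%. Counting every pooled KQ peak, 6 of 12 had one, against 16.4% of all genes. The highest pooled wild-type folds at reproducible sites of these 8 genes ran from 7.17 to 34.9. ALDH9A1, an enzyme of carnitine synthesis, had the fold of 34.9, at 24.6 kb from the gene. PRKAA1, a catalytic subunit of the kinase AMPK, had 21.2 at 41.9 kb, malonyl-CoA decarboxylase, MLYCD, 19.0 at 32.8 kb, and the acetyl-CoA carboxylase ACACB 18.0 inside the gene. Of the acyl-CoA synthetases, which activate fatty acids, 4 of 7 had a wild-type site and 1 of 7, ACSL3, a KQ site, while 5 of 7 had some pooled KQ peak.

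The mitochondrial beta-oxidation list had a reproducible wild-type site at 11 of 16 genes, against 37.7% of all genes. It had a KQ site at 5 of 16, against 2.68%: ACADVL, HADHA, HADHB, DECR1 and ETFA. With every pooled KQ peak counted it was 9 of 16, and 4 of 11 in the peroxisomal list, against 16.4% of all genes. HADHA and HADHB, which encode the trifunctional protein, are neighbours and shared their sites, the highest with pooled folds of 14.6 (wild type) and 15.2 (KQ). ETFA, a subunit of the electron transfer flavoprotein that accepts electrons from acyl-CoA dehydrogenases, had a wild-type fold of 27.6 at 0.131 kb from the gene and a KQ fold of 6.47. DECR1, which handles unsaturated fatty acids, had folds of 16.1 and 6.99 inside the gene. In the peroxisomal list 9 of 11 genes had a wild-type site, beside the same 37.7% of all genes. A KQ site was near 1 of 11, beside 2.68%. It was that of ABCD2, a peroxisomal fatty acid transporter (folds 19.8 and 7.62).

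**Figure D4:**
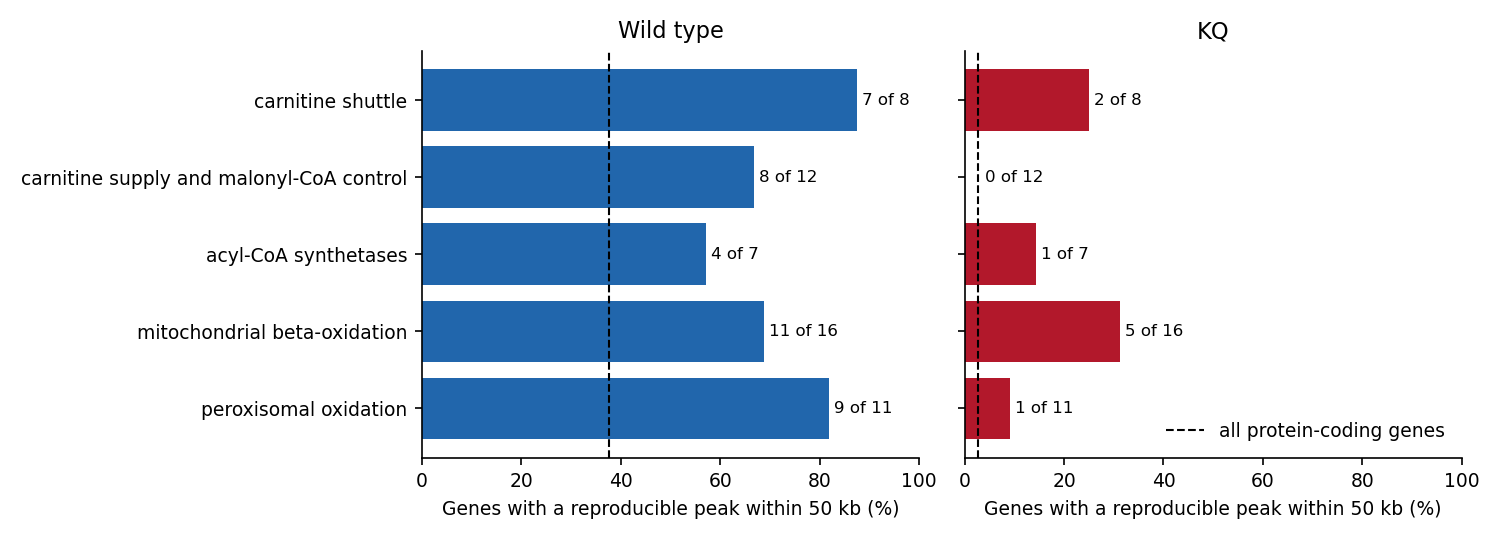
Percentage of genes in each list with a reproducible peak within 50 kb (x axis), for wild type (left) and KQ (right), with the number of genes beside each bar. The dashed lines mark all protein-coding genes, at 37.7% and 2.68%; the shuttle genes stand at 7 of 8 and 2 of 8.

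The genes whose binding pattern was most like that of the CPT1 genes were of varied kinds. Likeness was the Euclidean distance over the 4 libraries of log2(1 + the highest fold in the window), and genes sharing a peak with the member were left out. Nearest to CPT1A were SEMA5A (distance 0.335), ZEB2 (0.349) and ETFA (0.41). The ETFA window had highest folds of 25.4 and 17.9 with wild type and 7.31 and 5.14 with KQ, in library order. Nearest to CPT1B were FOXQ1 and LOC124905366 (both 0.267, with identical values) and AHDC1 (0.296). This is a description over 4 libraries, of which those of a group share their construct.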

How the data were processed

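Peak lists of the 4 ChIP libraries and of the pooled libraries of each group were used, 6 lists in all. Bowtie2, MACS2 and the hg38 build are named in the submitters' processing notes. The sources used here give neither the caller's settings nor its use of input. The deposited values per peak are a fold enrichment (a ratio), −log10 of p and q, a score (10 times −log10 q) and the summit position.

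Only the autosomes and X were analysed, which left out 15 wild-type and 14 KQ pooled peaks. Gene spans came from RefSeq (GRCh38.p14). Summit tags and local background were solved from fold and p with the MACS2 formulas, tested on simulated data. The lowest background is the lowest value shared by at least 5 peaks of a list. Libraries were compared with exact permutation tests, two-sided. Peaks are not replicates and were not tested. Analyses used Python 3.11.15 with SciPy 1.17.1.

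The members, lists and tests were chosen with earlier results of these data known, and the heights and the fold ranges were added after these lists had been examined. Named peaks were, for each member and group, the highest of the pooled list, and every reproducible KQ peak; other peaks were named after their values were seen. Named partner genes had a reproducible KQ peak. The exceptions, ALDH9A1, PRKAA1, MLYCD and ACACB, the 4 highest of their list, were chosen after their values were seen.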

Additional observations from a re-analysis of the deposited data

How the results depend on the processing

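Of 68 alternative values of the counts, shares and library differences, 56 kept their direction and stayed within the range set for them. All alternatives to the share of 28.6% that overlapped a pooled KQ peak were among these 56. They still ran from 16.1% (5 of 31, all pooled wild-type peaks) to 50.0% (3 of 6, 5 kb window). The number 56 is therefore no measure of how stable the values were. Of 21 highest folds read from a single library instead of the pooled list, 14 moved by more than the spread between libraries or had 1 library only. Among them CPT1B with wild type went from 28.7 to 18.2 and 17.5. CPT2 went from 9.07 to 5.27 in library 2, but at another site, since library 2 had no peak at the pooled one. In wild-type library 1 the highest peaks of CPT1C and SLC22A5 were also at another site than in the pooled list. Their folds, 10.4 against a pooled 9.07 and 9.02 against 8.26, did not count as moved, although different sites were compared. Some of the 14 moves were small: CPT1A with KQ went from 6.83 to 6.89 and 6.87, and counted because its libraries differed so little. Leaving out a library gave 7 to 8 members with a wild-type site and 3 members with a KQ site. These settings ask for 1 library only, and the share of all genes rose with them, to between 48.6% and 54.8% for wild type and between 5.79% and 7.01% for KQ. The difference in peaks per library lay between 16.0 and 20.0, and per 1000 peaks between -1.73 and -1.21. With the lists shortened to equal length by q, both library differences were 0.0. Cutting the reproducible wild-type peaks to as many as KQ has, by q or by fold, gave 3 members and 3 peaks, against 3.25% and 2.86% of all genes. The 5 kb window left 6 wild-type peaks, and counting all pooled peaks gave 31. With all pooled KQ peaks there were 4 members and 5 peaks (16.4% of all genes). With the nearest coding gene there were 1 member and 1 peak (1.67% of all genes), since SYCE3 lies closer to the CPT1B site. In the 100 kb window CPT1C also had a KQ site, which made 3 of 8 members, against 4.31% of all genes.

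Taking equal replicate numbers as pairs (replicate block, exact sign-flip test) left the differences at 18.0 and -1.47 with p = 0.5, the smallest that 2 pairs allow. Deviations of same-numbered libraries had a correlation of -0.0069 over the 313 sites. A correlation leaves out any offset common to all sites, so it cannot decide whether the numbers pair the samples. The labels do not say what the numbers mark, and the main tests took the libraries as unpaired. The median peak had 17 and 16 summit tags in the KQ libraries and 15 and 8 in those of wild type, over a higher lowest background in KQ. The part of depth in the KQ calls was not tested.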
